A study of Mus musculus with 5 samples.

Results

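Plasmacytoid dendritic cells (pDCs) were described in droplet single-cell RNA-seq data of mouse lungs taken after intratracheal PBS (sham) or on day 3, day 7, day 14 or day 28 after bleomycin, a drug that injures the alveolar epithelium and leads to inflammation and then fibrosis. Every library came from Ms4a3-CreER;R26-tdT mice, in which a tamoxifen-inducible Cre recombinase is expressed from the Ms4a3 locus of granulocyte and monocyte precursors and switches on the tdT reporter, read here as the added feature RFP. The study used adults of both sexes on a mixed C57BL6/129 background, and the sham animals carried the same alleles. Over all kept cells, however, the female transcript Xist was at most 0.420 CPM and the Y-linked Ddx3y at 82.8 to 136 CPM in every library. There was 1 library per time point, the number of mice behind a library was not stated, and differences between time points were therefore not tested. The intervals given with single libraries are 95% intervals for counting error only.

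The cells were chosen by measured values. A barcode was a member when it held 300 to 8000 genes, 800 to 60000 unique molecular identifiers (UMIs, each counting 1 captured mRNA molecule) and less than 15% mitochondrial UMIs, at least 2 UMIs of Siglech (ENSMUSG00000051504) and at least 3 of Bst2 (ENSMUSG00000046718), and no UMI of Cd3e, Ms4a1, Car4 and C1qa. Siglech encodes the pDC surface receptor Siglec-H and Bst2 the antigen PDCA-1, whereas the other 4 genes mark T cells, B cells, alveolar macrophages and interstitial macrophages. By this rule 389 of 44772 kept barcodes (0.869%) were members. The libraries held 131210167 UMIs (sham), 89769386 (day 3), 151234640 (day 7), 144984156 (day 14) and 167506186 (day 28). No barcode of the day 7 library held fewer than 4624 UMIs, whereas the other 4 libraries reached down to between 500 and 502. Pairs of libraries shared between 22 and 41 barcode sequences, and no member's barcode occurred in another library among the members.

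As background, pDCs are bone marrow-derived cells that resemble secretory lymphocytes in shape and depend on the E protein Tcf4 (E2-2). They sense nucleic acids in endosomes through TLR7 and TLR9, which signal through MyD88 to IRF7, and they are known as a major source of type I and type III interferons in viral infection. Interferons bind receptors that signal through JAK kinases and transcription factors such as STAT2 and IRF9, which drive the interferon-stimulated genes (ISGs). In the lung pDCs are a rare population, distinct from the conventional dendritic cells cDC1 (Xcr1+ Clec9a+) and cDC2 (Cd209a+), which present antigen to T cells.

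The rule was met by 17 cells of the sham library, 160 on day 3, 170 on day 7, 27 on day 14 and 15 on day 28. Their share of kept barcodes was 0.184% (0.107 to 0.294) in sham lungs, 2.00% (1.70 to 2.33) on day 3, 1.79% (1.53 to 2.08) on day 7, 0.348% (0.230 to 0.506) on day 14 and 0.146% (0.0817 to 0.241) on day 28. The day 3 and day 7 intervals lie above the other 3 and overlap each other. With the lowest UMI count of the day 7 library (4624) as a floor in each library, day 3 was at 2.49% (2.11 to 2.90). That interval lies above the day 7 interval, which the floor did not change. The denominator differed between libraries, since alveolar macrophages (at least 2 UMIs of Car4) made up 58.6% of kept barcodes in the sham library, 7.83% on day 3, 10.4% on day 7, 5.87% on day 14 and 9.96% on day 28. Among the kept barcodes outside that gate the shares were 0.444%, 2.17%, 2.00%, 0.370% and 0.162% in the same order, so that the difference between day 3 and sham was smaller on this denominator.

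**Figure D1:**
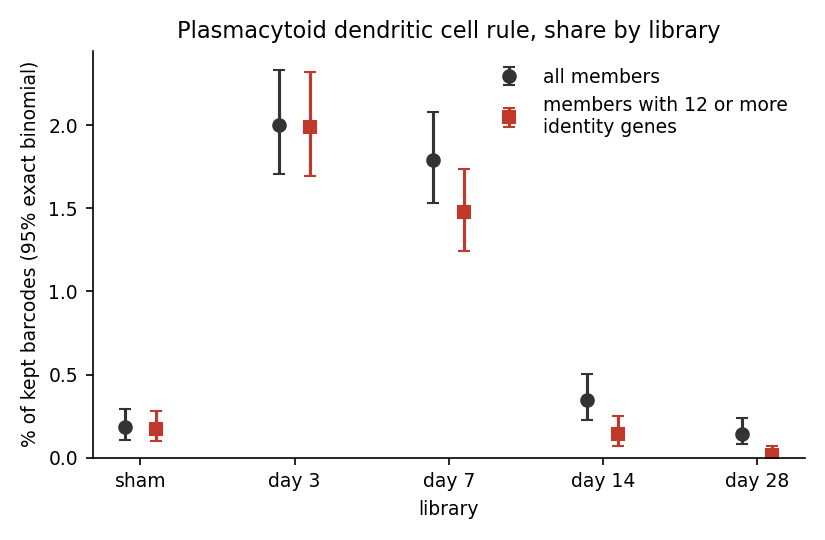
Share of kept barcodes that met the pDC rule in each library (y axis, percent; x axis, library), with exact 95% binomial intervals for counting error. Black circles are all members and red squares the members with 12 or more of 29 pDC identity genes. The shares on day 3 (2.00%) and day 7 (1.79%) stand above those of sham, day 14 and day 28, and on day 28 the identity-rich share is 0.0195%.

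The label was checked against 29 further genes of pDC identity, which the rule did not use. In 328 of the 389 members (84.3%) at least 12 of these genes were detected, with a median of 24 genes per cell. These cells, called identity-rich here, numbered 16 in the sham library, 159 on day 3, 140 on day 7, 11 on day 14 and 2 on day 28. The other 61 members, called identity-poor, had a median of 7 identity genes and numbered 1, 1, 30, 16 and 13 in the same order. The limit of 12 was set after the values were seen, and 17 members had between 10 and 14 of the genes. The identity-poor cells held more UMIs per cell (median 19835 against 10200), and after thinning of each cell to 3000 UMIs the medians were 3 and 18 genes.

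The identity-poor cells were marked by genes of cDC1. A UMI of Xcr1, the chemokine receptor of cDC1, was found in 53 of the 61 (86.9%) and in 4 of the 328 identity-rich cells (1.22%). Clec9a, a receptor for dead cells, was found in 50 of the 61 and also in 149 of the 328. Ly6d, a surface protein of pDCs and early lymphoid precursors, was found in 1 of the 61 and in 267 of the 328. The summed level of 7 cDC1 markers in the identity-poor cells was 2192 CPM (UMIs of a gene per 1000000 UMIs of these cells) on day 7, 2839 on day 14 and 2168 on day 28, whereas that of the identity-rich cells ranged from 252 to 635 CPM over the 5 libraries. In cells of the cDC1 gate (a UMI each of Xcr1 and Clec9a, none of Siglech) it ranged from 2255 to 3840 CPM. The identity-poor cells had a median of 2 Siglech UMIs and 5 Bst2 UMIs, at or just above the limits of the rule, against 22 and 39 in the identity-rich cells. On days 14 and 28 the members therefore went against the label in 16 of 27 and 13 of 15 cells. For some genes, values of the identity-rich cells are given below beside those of all members. Where values of all members stand alone, those of days 14 and 28 come mostly from identity-poor cells.

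**Figure D2:**
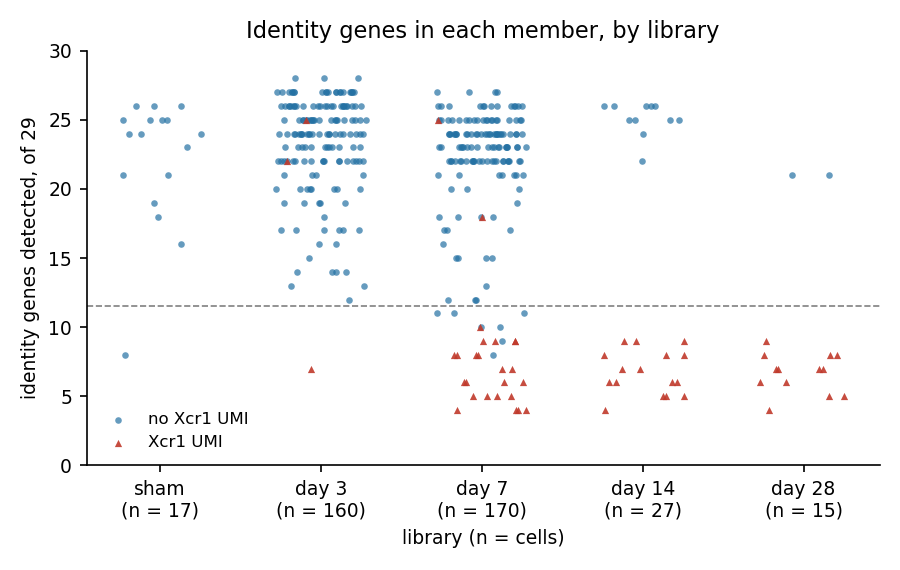
Number of the 29 pDC identity genes with at least 1 UMI (y axis) in each of the 389 members, by library (x axis, number of cells in parentheses). Each point is 1 cell, red triangles hold an Xcr1 UMI and blue circles do not, and the dashed line separates members with 12 or more genes from those with fewer. Sham and day 3 hold 1 cell each under the line, whereas 16 of 27 cells on day 14 and 13 of 15 on day 28 lie under it.

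The thresholds themselves are described without a test. Of 119 barcodes that met every other condition but held 1 Siglech UMI, 5.04% were identity-rich, as were 19.6% of the 46 members with exactly 2 Siglech UMIs. Of 16 barcodes with 2 Bst2 UMIs 12.5% were identity-rich, and of 9 members with exactly 3 none was. The 4 genes required at 0 had a larger effect on the count than looser limits (1 Siglech and 2 Bst2 UMIs) in every library but day 28. Without these 4 genes 31 cells in the sham library, 220 on day 3, 268 on day 7, 69 on day 14 and 25 on day 28 passed. With the looser limits 31 cells passed on day 28. Of the barcodes that the 4 genes removed, 14, 59, 68, 18 and 3 were identity-rich in the order of the libraries. C1qa, a complement gene of macrophages, was present in 158 of the removed barcodes, Car4 in 63, Cd3e in 26 and Ms4a1 in 12. In the sham library 13 of the 14 removed barcodes held Car4.

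ISGs were at a high level in the members on day 3. The summed level of 47 ISGs was 3572 CPM in sham members, 22140 on day 3, 4683 on day 7, 3171 on day 14 and 1420 on day 28. The day 3 level was 6.20-fold that of sham (log2 ratio 2.63, 2.52 to 2.75, from 44517 and 604 UMIs). In identity-rich cells the sums were 3723, 22236, 5343, 2881 and 847 CPM, so that day 3 stood apart from the other 4 libraries in both sets of cells. Ly6a (Sca-1) was the most abundant ISG in the members of sham, day 3, day 7 and day 14, and Trim30a in those of day 28. Without Ly6a the sums were 2501 CPM in sham members and 13171 on day 3. Of the 32 ISGs that reached 100 CPM on day 3 or in sham members, 30 differed at least 2-fold upwards on day 3 and none was at least 2-fold lower, with a median log2 ratio of 2.69. Over all 1876 genes that reached 100 CPM, 10.2% passed this limit upwards and 4.53% downwards, with a median log2 ratio of -0.03.

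Promoter sequence is shown for 5 of the raised ISGs, because the kind of motif that IRF proteins bind can be read in them. The motif searched was GAAANNGAAA on either strand (TTTCNNTTTC on the other). It was looked for in RefSeq promoters (build GRCm38.p6), 250 bases before to 50 after each gene start. It was found in 10 of the 20 raised ISGs with a promoter sequence (50%), in 8 of the 14 other ISGs (57.1%), in 2 of 23 pDC identity genes (8.70%), in 1 of 15 antigen presentation genes (6.67%), in none of 24 secretory genes and in 1079 of all 27025 genes (3.99%). A match describes these letters and is not evidence of binding. Below, 25 bases on each side of 1 site are given in the direction of the gene, with the site in capitals.
Isg15, chr4:156200850-156200909, minus strand: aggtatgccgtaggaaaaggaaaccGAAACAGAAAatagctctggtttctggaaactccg
Rsad2, chr12:26456538-26456597, minus strand: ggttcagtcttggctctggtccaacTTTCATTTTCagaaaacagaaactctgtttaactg
Ifit3, chr19:34583382-34583441, plus strand: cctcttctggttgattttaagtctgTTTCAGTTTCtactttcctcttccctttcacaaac
Ifit1, chr19:34640779-34640838, plus strand: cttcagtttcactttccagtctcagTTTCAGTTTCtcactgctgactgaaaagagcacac
Stat2, chr10:128270251-128270310, plus strand: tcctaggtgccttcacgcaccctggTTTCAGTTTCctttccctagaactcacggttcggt

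Isg15, a ubiquitin-like modifier of proteins, was measured at 17.7 CPM in sham members, 1020 on day 3, 38.5 on day 7, 132 on day 14 and 14.3 on day 28, and in identity-rich cells at 18.7, 1019, 33.9, 24.8 and 0. The sham value of all members rests on 3 UMIs, the log2 ratio of day 3 to sham was 5.85 (4.30 to 8.12), and 92.5% of the day 3 members held a UMI of Isg15. Rsad2 (viperin, an enzyme that stops viral RNA synthesis) was at 0 in sham and day 28 members, at 206 CPM on day 3, at 9.90 on day 7 and at 236 on day 14, where its UMIs came from 7.41% of the cells and identity-rich cells were at 8.28. Ifit3 (0, 120, 4.95, 2.00 and 0 CPM) and Ifit1 (0, 106, 7.15, 23.9 and 0 CPM), the latter a binder of foreign RNA, were highest on day 3. Against a floor of 3 UMIs in the sham members, the day 3 log2 ratios were at least 3.54 for Rsad2, 2.76 for Ifit3 and 2.58 for Ifit1. Stat2 was measured at 11.8 CPM in sham members, 133 on day 3, 50.1 on day 7, 61.9 on day 14 and 28.6 on day 28.

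Irf7, the transcription factor that pDCs use to induce interferon genes and itself an ISG, was measured at 154 CPM in sham members, 2076 on day 3, 267 on day 7, 83.8 on day 14 and 3.57 on day 28. In identity-rich cells Irf7 was at 162, 2075, 338, 141 and 0 CPM. On day 3 the level in all members was 13.5-fold the sham level (log2 ratio 3.76, 3.20 to 4.37). Ly6a was measured at 1070, 8970, 1570, 501 and 17.8 CPM in the same order, and its day 3 level was 8.38-fold that of sham. Of MHC class I, H2-K1 was measured at 2371 CPM in sham members, 4732 on day 3, 1854 on day 7, 1261 on day 14 and 1049 on day 28, and B2m, its invariant partner, at 1756, 3836, 2054, 1766 and 1727 CPM. The receptor subunits of type I interferon differed less, with Ifnar1 at 254 CPM in sham members and 302 on day 3, and Ifnar2 at 266 and 404.

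The same genes were high on day 3 in the other cells of the library. Summed over the 47 ISGs, the day 3 level was 23905 CPM in the cDC2 gate, 15140 in the cDC1 gate and 17211 over all kept cells, against sham levels of 1309, 1075 and 833 CPM. Of the ISGs at 100 CPM or more, 42 of 42 were at least 2-fold higher on day 3 than in sham cells of the cDC2 gate, 29 of 29 in the cDC1 gate, 16 of 19 in the B cell gate, 22 of 24 each in the T and NK cell gates and 19 of 19 in the alveolar macrophage gate. Over all genes at that level, 14.2% were at least 2-fold higher in the cDC2 gate, 12.7% in the cDC1 gate, 5.43% in the B cell gate, 7.52% in the T cell gate, 7.18% in the NK cell gate and 6.95% in the alveolar macrophage gate. The median log2 ratio was 4.12 for the cDC2 gate and 4.40 for the cDC1 gate, and the sham level of the members (3572 CPM) was higher than that of either. The 1 day 3 library cannot be told apart from the time point.

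**Figure D3:**
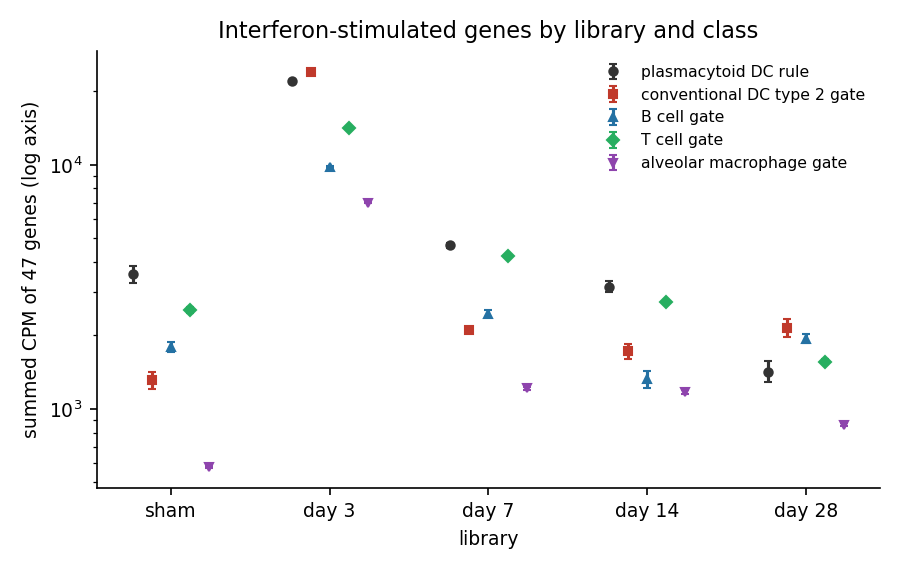
Summed level of 47 interferon-stimulated genes (y axis, CPM on a log axis) by library (x axis) in the members of the pDC rule and in 4 other gates, with 95% Poisson intervals for counting error. The members were at 3572 CPM in sham lungs and 22140 on day 3, and all 5 groups of cells had their highest level on day 3.

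Interferon ligands were nearly absent from the members. No UMI of 15 type I interferon genes other than Ifnk and Ifne was found in any member of any library. With 3 cells as the limit for a count of 0, this allows a share of cells with a UMI of up to 1.875% on day 3 and 1.76% on day 7. In the smaller sham, day 14 and day 28 groups it allows up to 17.6%, 11.1% and 20%. These limits are not the exact binomial limits used for the other shares. In the whole day 3 library there were 84 such UMIs in 5 cells, of which Ifnb1 gave 82 and a single cell 49. Type III interferon (interferon lambda) was the exception. The day 3 library held 13 UMIs of Ifnl2 and Ifnl3 in 10 cells, of which 12 UMIs were in 9 members and 1 was in a Siglech and Bst2 positive barcode that the genes required at 0 had removed. Ifnl2 was found in 8 members and Ifnl3 in 2, with no more than 2 UMIs in a cell, and the other 4 libraries held none. Ifng gave 1 UMI in the members of day 3, and Ifnk, a type I interferon of keratinocytes, gave 4 in those of day 7 and 1 each on day 14 and day 28.

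The summed level of 27 nucleic acid sensing genes was 3389 CPM in sham members, 6385 on day 3, 3164 on day 7, 2367 on day 14 and 1759 on day 28. On day 3 the most abundant of them was Irf7, which gave 2076 of the 6385 CPM. Of 12 sensing genes at 100 CPM or more, 3 were at least 2-fold higher on day 3 and none lower (median log2 ratio 0.35), beside 10.2% and 4.53% of all genes. Tlr7, the receptor for single-stranded RNA, was measured at 82.8 CPM in sham members, 127 on day 3, 68.2 on day 7, 27.9 on day 14 and 3.57 on day 28. Tlr9, the receptor for CpG DNA, was under 6 CPM in each library (5.91, 3.98, 3.85, 0 and 0), which is 1 UMI in the sham members. Unc93b1, the chaperone that brings both receptors to the endosome, was measured at 674, 810, 520, 267 and 286 CPM, and Pld4, an endosomal exonuclease that degrades their ligands, at 722, 1184, 621, 341 and 74.9 CPM. In the identity-poor cells Tlr7 was at 0 in 4 libraries and at 3.69 CPM (1 UMI) on day 28.

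Identity genes had a lower summed level over all members on days 14 and 28 than in the other libraries. In all members the sum over 29 genes was 19131 CPM in sham, 22421 on day 3, 13898 on day 7, 7654 on day 14 and 2216 on day 28. In identity-rich cells it was 19709, 22624, 19249, 24306 and 20000 CPM, and in identity-poor cells 2407 on day 7, 2366 on day 14 and 1596 on day 28, a difference that the selection on these genes fixed. Of the identity genes at 100 CPM or more, 3 of 27 were at least 2-fold higher and 2 lower on day 3, beside a background of 10.2% and 4.53%. On day 7 no identity gene was higher and 5 of 25 were lower (background 5.23% of 1760 genes higher and 7.22% lower). On day 14 none was higher and 19 of 25 were lower (13.9% and 19.5% of 1898 genes), and on day 28 none was higher and 24 of 25 were lower (13.2% and 29.1% of 1844 genes). With the identity-rich cells alone, none of 26 genes was higher and 2 were lower on day 7 (over all genes of these cells 4.67% and 5.08%), and 6 of 28 were higher and 2 lower on day 14 (11.1% and 9.27%). Siglech and Bst2, which chose the members, are given as a description. Siglech was at 2111, 1857, 1605, 1014 and 264 CPM over all members and Bst2 at 3495, 4995, 2315, 1004 and 335.

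Tcf4, the E protein that pDC identity requires, was measured at 2135 CPM in sham members, 1370 on day 3, 1264 on day 7, 866 on day 14 and 228 on day 28, and in identity-rich cells at 2205, 1387, 1762, 3212 and 3386. Id2, which encodes an inhibitor of E proteins that cDC1 depend on, ran the other way in all members (71.0, 108, 419, 672 and 907 CPM) and was low in identity-rich cells (75.0, 84.7, 71.0, 33.1 and 0). Tcf4 was lower on day 3 than in sham in both sets of cells, whereas the higher Id2 of days 7 to 28 was seen over all members and not in identity-rich cells. Spib, an Ets factor of pDCs, was measured at 526, 385, 165, 110 and 7.14 CPM in all members and at 556, 390, 239, 455 and 212 in identity-rich cells. Runx2, which pDCs need to leave the bone marrow, was at 485, 361, 387, 208 and 35.7 CPM in all members and at 481, 365, 561, 828 and 1058 in identity-rich cells. Irf8, which both pDCs and cDC1 express, differed less (3211, 3099, 2253, 2191 and 1053 CPM in all members and 3392, 3099, 2801, 3974 and 2222 in identity-rich cells).

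A few identity genes differed between sham and the early bleomycin libraries in identity-rich cells as well. Ly6d was measured at 1068 CPM in identity-rich cells of the sham library, 2675 on day 3, 1238 on day 7, 24.8 on day 14 and 212 on day 28. In cells of the B cell gate, which also express it, Ly6d was at 1143, 1452, 800, 351 and 1737 CPM, and was likewise lowest on day 14. Cd209d, a C-type lectin, was measured at 1149 CPM in identity-rich sham cells, 92.7 on day 3, 164 on day 7, 464 on day 14 and 635 on day 28. The sham level of Cd209d was above that of every bleomycin library in both sets of cells. Klk1, a kallikrein protease, was measured in identity-rich cells at 369 CPM in sham, 976 on day 3, 357 on day 7, 1192 on day 14 and 106 on day 28, the last from 2 cells. Cd7 differed little in identity-rich cells of sham, day 3 and day 7 (618, 570 and 533 CPM) and was at 331 on day 14. Over all members both were lower on day 14 (Klk1 287 and Cd7 79.8 CPM).

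**Figure D4:**
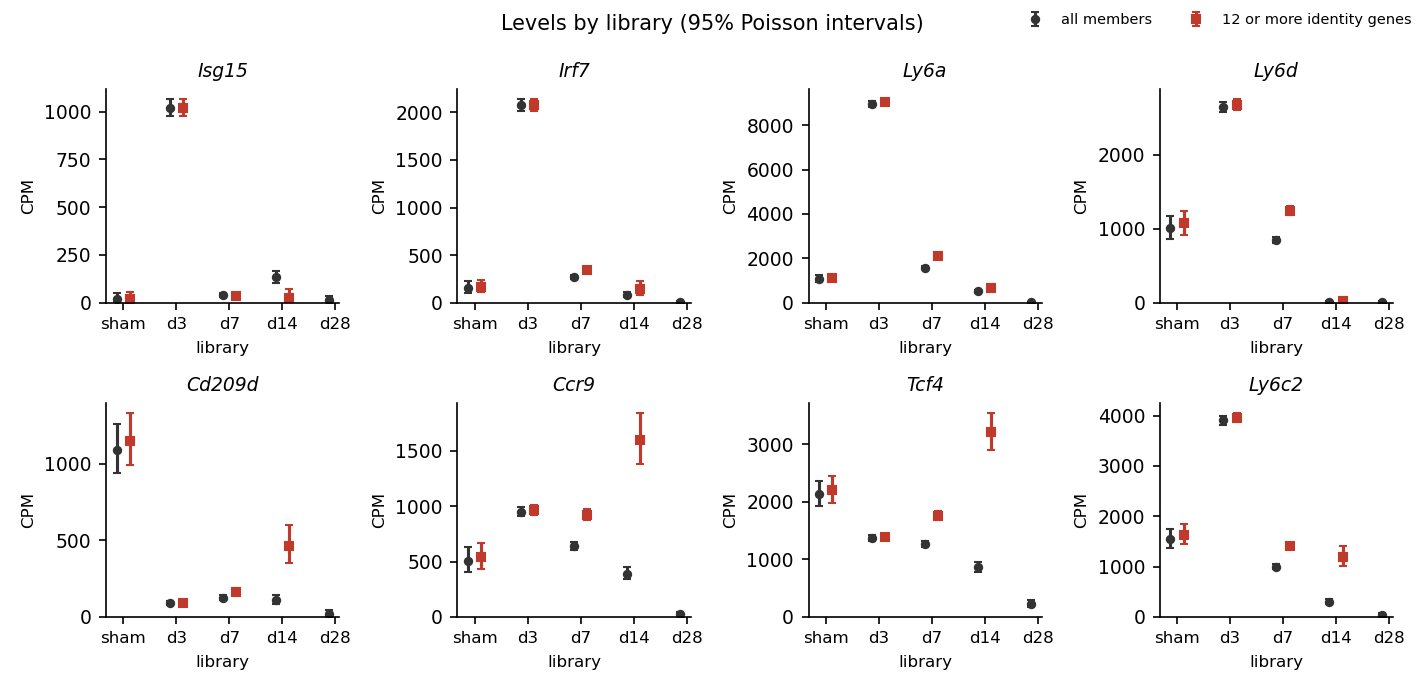
Level (y axis, CPM) of 8 genes by library (x axis; d3 is day 3 and so on) in all members (black circles) and in members with 12 or more identity genes (red squares), with 95% Poisson intervals for counting error. The red value on day 28 is left out because it rests on 2 cells. Isg15, Irf7, Ly6a, Ly6d and Ly6c2 were highest on day 3, Cd209d was highest in sham lungs, and on day 14 Tcf4 and Ccr9 were higher in the red than in the black set.

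Of the genes of MHC class II antigen presentation, Cd74 and H2-Aa were higher in all members than in identity-rich cells on days 7, 14 and 28. Cd74, the invariant chain, was measured at 7031 CPM in sham members, 4849 on day 3, 9038 on day 7, 15436 on day 14 and 15738 on day 28, and in identity-rich cells at 6822, 4604, 4020, 3452 and 4762. H2-Aa, an MHC class II chain, was measured at 2354, 1625, 3985, 9458 and 9978 CPM in all members and at 2324, 1504, 1468, 1391 and 3492 in identity-rich cells. In the cDC2 gate H2-Aa ranged from 8893 to 12325 CPM over the 5 libraries. Of the presentation genes at 100 CPM or more, 2 of 11 were at least 2-fold higher and 1 lower on day 3 among all members, 3 of 10 were higher on day 7, 11 of 16 on day 14 and 11 of 15 on day 28, beside 10.2%, 5.23%, 13.9% and 13.2% of all genes higher on these days. Among identity-rich cells of day 14 none of 10 was higher and 3 were lower (11.1% and 9.27% of all genes).

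Among homing genes, 2 of 12 were at least 2-fold higher and 3 lower on day 3 (10.2% and 4.53% of all genes). Ly6c2 was measured at 1549 CPM in sham members, 3906 on day 3, 995 on day 7, 293 on day 14 and 39.3 on day 28, with a log2 ratio of 1.33 (1.16 to 1.52) on day 3. Ly6c2 was also high on day 3 in the cDC2 gate (26.3, 1444, 21.2, 2.02 and 0 CPM). In that gate the summed level of 8 monocyte markers was 3754 CPM in sham and 4596 on day 3. That of 4 cDC2 markers was 3422 and 1640 CPM, and the bearing of either on Ly6c2 was not tested. Ccr2, the receptor for CCL2, was lowest on day 3 (408, 73.6, 217, 259 and 357 CPM), where its log2 ratio to sham was -2.47. Ccr9, a receptor of the gut-homing chemokine CCL25 and a marker of steady-state pDCs, was measured at 509, 952, 638, 391 and 21.4 CPM, and in identity-rich cells at 537, 965, 924, 1598 and 317.

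Of the 6 effector genes at 100 CPM or more, 4 were at least 2-fold higher on day 3 than in sham members and none was lower (10.2% and 4.53% of all genes). Cxcl10, a ligand of CXCR3, was at 0 in sham members, 175 CPM on day 3, 7.70 on day 7, 29.9 on day 14 and 7.14 on day 28, and in the cDC2 gate it was at 20.3, 2276, 51.0, 2.02 and 15.4 CPM. Ccl5 was measured at 5.91 CPM in sham members and 104 on day 3 (log2 ratio 4.14, 1.65 to 9.45). Il1b was measured at 65.1 CPM in sham members, 264 on day 3, 436 on day 7, 589 on day 14 and 60.7 on day 28, and in identity-rich cells at 62.5, 224, 276, 8.28 and 0. Ccl4 was high in each library (2963, 2408, 2160, 1289 and 746 CPM), and Il12a, the p35 chain of IL-12, was low (41.4, 14.9, 47.3, 11.97 and 0 CPM).

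The secretory genes, which serve the endoplasmic reticulum, hardly differed early. None of 25 secretory genes at 100 CPM or more was 2-fold higher or lower on day 3 (median log2 ratio 0.31). On day 14, 5 of 22 were lower, a share near the 19.5% of all genes. On day 28, 12 of 22 were lower (29.1% of all genes). Xbp1, the factor of the unfolded protein response that plasma cells share, was measured at 408 CPM in sham members, 658 on day 3, 358 on day 7, 251 on day 14 and 146 on day 28, and Mzb1, a chaperone of antibody-secreting cells, at 207, 284, 194, 19.95 and 14.3 CPM. In identity-rich cells Xbp1 was at 425, 664, 461, 414 and 423 CPM and Mzb1 at 219, 288, 285, 82.8 and 423. The summed level of 15 cell cycle genes was 242 CPM in sham members, 464 on day 3, 597 on day 7, 615 on day 14 and 1217 on day 28, and in identity-rich cells it was 225, 469, 406, 339 and 317. Hmgb2 was the most abundant of them in the members of each library, and on day 28 it gave 596 of the 1217 CPM. Of 13 immediate early genes at 100 CPM or more, 2 were at least 2-fold higher and 5 lower on day 3 (10.2% and 4.53% of all genes), the latter with Klf2 (1561 CPM in sham members, 641 on day 3, 339 on day 7, 499 on day 14 and 253 on day 28).

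The largest differences from sham members, named by a fixed rule of size, differed in kind between days. On day 3 the 5 genes with the highest ratios were 4 ISGs and S100a8. Beside Isg15 these were Oasl2 (5.91 CPM in sham members and 337 on day 3), Ms4a4c (5.91 and 306) and Usp18 (5.91 and 256), each with 1 UMI in the sham members. S100a8, a neutrophil gene, was at 11.8 and 578 CPM, but 86.4% of its day 3 UMIs came from 1 cell, without which it was at 79.2. The 5 lowest ratios on day 3 were those of Sox4 (log2 ratio -4.07), Areg (-4.05), Lpl (-3.65), Cd209d (-3.57) and Cwc22 (-3.28). Lpl, the lipoprotein lipase, and Cwc22 were also lower over all kept cells of day 3, where Lpl was at 400 CPM against 1722 in sham. Lpl was at 118 CPM in sham members and 9.45 on day 3, and in B cells at 102 and 15.2.

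On day 7 the named genes were S100a8 (348 CPM, with 46.7% of its UMIs in 1 cell, without which it was at 187), Ckb (5.91 CPM in sham members and 131 on day 7), Gm10709 (0 and 346), Clu (0 and 293, with 90.6% of the UMIs in 1 cell) and Cxcl2 (17.7 and 203) as higher. Ckb, a creatine kinase, rested on 1 UMI in the sham members, was at 58.9 CPM in identity-rich cells of day 7, and turned lower (log2 ratio -0.55) with limits of 1 Siglech and 2 Bst2 UMIs. Those with the lowest ratios were Rnaset2b (201 CPM in sham members and 2.20 on day 7), Gm8730 (384 and 24.8), Wls (166 and 11.6), Cd209d and Cadm1 (319 and 42.9). Of these 10 genes, 7 differed in the same direction over all kept cells of day 7, and S100a8, Cd209d and Cadm1 in the other direction. Clu was there at 7.62 CPM in sham and 153 on day 7, Ckb at 26.2 and 65.7, Cxcl2 at 687 and 1869 and Wls at 142 and 59.1.

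On day 14 Tbc1d4 (5.91 CPM in sham members and 489 on day 14), Egr2 (5.91 and 221), Gatm (5.91 and 217), Ifi205 (0 and 607) and Cxcl16 (0 and 535) were higher. Tbc1d4, Ifi205 and Cxcl16 were at 0 in the identity-rich cells of day 14, Egr2 at 8.28 CPM and Gatm at 16.6, and Tbc1d4 and Ifi205 were at 624 and 643 CPM in the cDC1 gate of that library. Lower were Rpl29 (1679 and 7.98 CPM), Ly6d, Wls, Rgcc and Sox4, of which Rpl29 was nearly absent from all kept cells of that library. On day 28 Spp1 (osteopontin) was at 6681 CPM against 29.6 in sham members, with 61.9% of its UMIs in 1 cell, and was higher on day 28 than in sham also in B cells (65.1 and 2568 CPM) and over all kept cells (857 and 12044). It was followed by Tbc1d4 (428), Ccl17 (0 and 835), Ckb (236) and Mmp19 (203, with 77.2% of its UMIs in 1 cell). The lower genes of day 28 were the identity genes Cd7, Ly6d, Upb1 and Klk1, together with Cd209a. The day 28 values rest on 15 cells, of which 13 were identity-poor, and in the 2 identity-rich cells Tbc1d4, Ccl17, Ckb and Mmp19 were at 0.

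The members were then compared with cDC2 and with B cells, the classes with which pDCs share a dendritic cell and a lymphoid programme. UMIs were summed per class and library, and day 3, day 7 and day 14, which held at least 20 cells of each class, entered the test. The classes were gated on transcripts of the same cells, so that these tests describe them and the genes of the gates were left out. Against cDC2 (at least 2 UMIs of Cd209a), 431 of 7828 genes (5.51%) were higher and 343 (4.38%) lower in the members at an adjusted p under 0.05 by the edgeR quasi-likelihood test. Against B cells (at least 2 UMIs each of Ms4a1 and Cd79a), 711 of 8757 genes (8.12%) were higher and 599 (6.84%) lower. Of the 27 day 14 members 16 were identity-poor, and these gave 380371 of the 501163 UMIs summed for the members. On day 7, 30 of 170 members were identity-poor and gave 577555 of 1817921 UMIs, and on day 3, 1 of 160 gave 26459 of 2010683. The fold changes below are those of all members. Without day 7 the counts fell to 47 higher and 43 lower against cDC2, and without day 3 to 54 and 47 against B cells.

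The shares over all tested genes (5.51% higher and 4.38% lower against cDC2, 8.12% and 6.84% against B cells) are the background of each count of listed genes below. Identity genes were higher against both classes, 24 of 27 tested against cDC2 (median log2 fold change 3.96, over all genes 0.01) and 25 of 28 against B cells (4.73, over all genes -0.04), and none was lower. Mctp2, which encodes a membrane protein with calcium-binding C2 domains, gave 714 UMIs in the members and 0 in cDC2, at least 250-fold against a floor of 3 UMIs over the 3 libraries. Paqr5, a progestin receptor family member, gave 505 UMIs in the members and 0 in either class, at least 177-fold against cDC2 and 211-fold against B cells. Dntt, the template-free DNA polymerase of lymphocyte receptor rearrangement, gave 266 UMIs and 0 in cDC2 (at least 93.0-fold). Klk1 gave 2523 UMIs in the members, 1 in cDC2 and 4 in B cells. D13Ertd608e, Iglc3, Emid1, Cacna1e, Chdh and Klk1b27 completed the 10 largest increases over cDC2. Among those over B cells were Sh3bgr (417 UMIs and 0, at least 174-fold), Cox6a2 (1597 and 4), Cd209d (467 and 1), Pnck, Prss30 and Adam11.

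Of the transcription factors, 7 of 19 tested were higher than in cDC2 and 1 was lower (5.51% and 4.38% of all genes). Irf8 (log2 fold change 4.41 ± 0.21 SE, adjusted p = 0.000888 in edgeR), Spib (5.35 ± 0.34, adjusted p = 0.00119), Runx2, Ets1, Tcf4 (2.39 ± 0.30, adjusted p = 0.00683), Bcl11a and Mef2c were higher, and Id3, an inhibitor of E proteins, was lower (-1.97). Against B cells 5 of 20 were higher (8.12% of all genes), namely Runx2 (5.38), Irf8 (2.77), Tcf4 (1.72), Cbfa2t3 and Bcl11a (0.94), and 5 were lower, namely Ikzf3 (-4.82), Ets1 (-2.28), Foxo1, Id3 and Mef2c. Ets1 and Mef2c were therefore higher than in cDC2 and lower than in B cells. The genes that fell furthest below B cells were Cr2 (0 UMIs and 476), a complement receptor of B cells, Bank1, Ebf1 (1.39 CPM and 1002), Pax5 (1 UMI and 1019), Bend5, Vpreb3, Pou2af1, Ighg2b, Fcer2a and Cpm.

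Endosomal sensing set the members apart from cDC2 in a few genes. Tlr7 was higher (log2 fold change 5.02 ± 0.54, adjusted p = 0.00444 in edgeR), as were Tlr12, Pld4 (1.55) and Slc15a4, a lysosomal transporter that TLR7 and TLR9 signalling needs (1.12), whereas the cytosolic RNA sensor Ddx58 (RIG-I) was lower (-2.33). The other 20 of 25 sensing genes tested did not pass. Against B cells 6 of 25 were higher, among them Pld4 (2.36), Irf7 (2.31 ± 0.34, adjusted p = 0.0069), Tlr7 (1.49), Myd88 (1.35) and Tmem173 (STING), and Ddx58 and Traf3 were lower. Of 10 interferon receptor and signalling genes tested, Ifnar1 (1.57) and Ifnar2 (1.43) were higher and Ifngr1 (-1.63) was lower than in cDC2, and against B cells Ifnar2 (2.58), Ifnar1, Stat2 and Tyk2 were higher and Jak1 lower. ISGs showed no common direction against cDC2, where 1 of 41 was higher (Ly6a, 3.70) and 4 were lower, among them Ms4a4c (-2.77), Rtp4 (-2.49) and Ifit3 (-2.33). Against B cells 10 of 41 ISGs were higher and 3 lower.

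A further list held ITAM adaptors and the kinases behind them, surface receptors of pDCs and genes shared with B cells. Against cDC2 6 of 13 were higher and none was lower, among them Iglc3, an immunoglobulin light chain constant gene (2411 UMIs in the members and 3 in cDC2), Cd300c (5.58), Lair1 (3.96), Blnk, an adaptor of the B cell receptor (3.04), and Klra17 (2.80). Reads of Iglc3 cannot be told from those of its near-identical paralogs. Against B cells 5 of 16 were higher, among them Cd300c (8.14), Klra17 (6.21) and the adaptor Tyrobp (DAP12, 2.87 ± 0.36, adjusted p = 0.00402 in edgeR), and 5 were lower, namely Bank1 (-9.80), Jchain (-7.12), Cd79b (-5.90), Btk and Syk. Of the secretory genes 2 of 28 were higher than in cDC2, a share near the 5.51% of all genes, namely Mzb1 (8.41 ± 0.44, adjusted p = 0.000888) and Dnajb9 (1.40). Against B cells 17 of 28 secretory genes were higher (median log2 fold change 0.87), among them Xbp1 (2.28 ± 0.32, adjusted p = 0.00603), Herpud1, Creld2, Manf, Ssr1 and Sec61b, and Ckap4 was lower.

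Homing receptors were higher in the members for 6 of 16 genes tested against cDC2, among them Ccr9 (7.65 ± 0.45, adjusted p = 0.00103 in edgeR), Cxcr3 (5.04), S1pr4 (2.80), Itgae (1.94) and Selplg (0.91). Itgae belongs to the cDC1 markers, of which it, Clec9a and Cadm1 were higher than in cDC2 among 6 tested. Identity-poor cells gave 236 of the 237 Itgae UMIs of the members on day 14 and 232 of 266 on day 7. Against B cells 7 of 17 were higher, among them Ccr9 (7.37), Ly6c2 (4.31), Cxcr3 (3.46) and Ccr2 (2.19), and Ccr7 (-5.08), S1pr1 (-5.13) and Cxcr4 (-2.11) were lower. Of the presentation genes, H2-K1 was higher than in cDC2 (0.86) and Cd80 (-2.86), H2-DMb2 (-2.19) and Cd40 (-1.81) were lower, with a median of -1.30 over the 21 tested. Against B cells none was higher and 6 of 23 were lower, among them Pdcd1lg2, H2-Ob and H2-DMb2. Among effectors Il12a (6.96) and Ccl4 (1.72) were higher and Il1b (-2.88) and Il12b (-2.79) lower than in cDC2, and Ccl4 (4.95) and Ccl3 (2.70) were higher than in B cells.

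**Figure D5:**
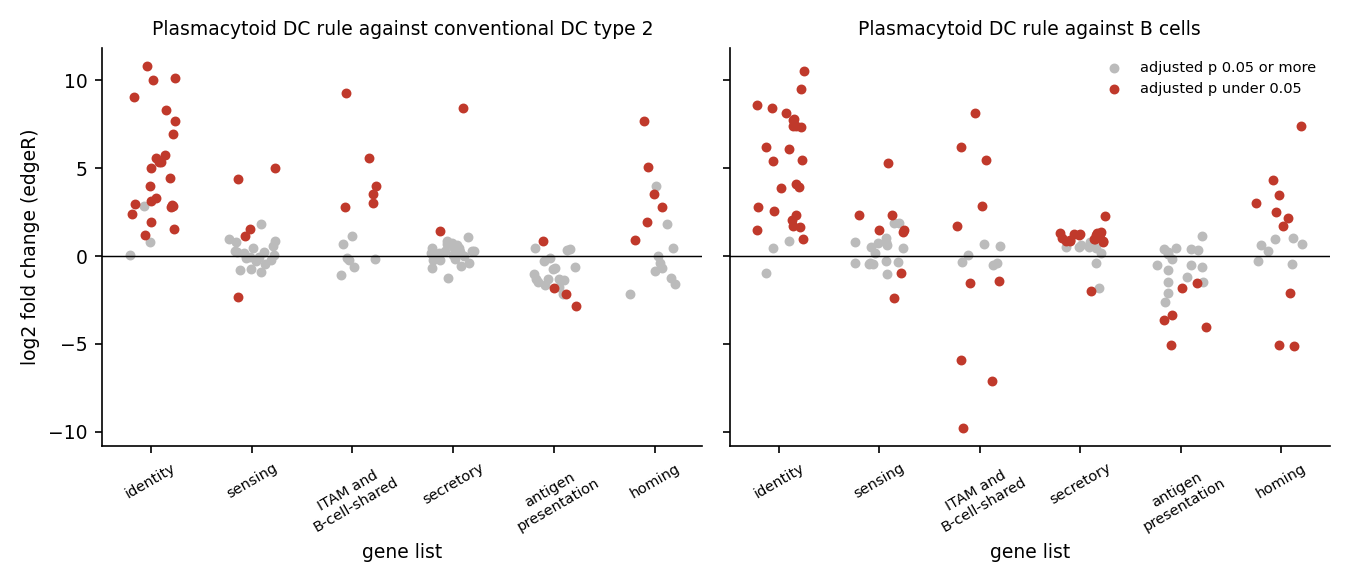
Log2 fold change (y axis, edgeR) of the members of the pDC rule against cDC2 (left) and B cells (right) for the tested genes of 6 lists (x axis). Each point is 1 gene, red where the adjusted p was under 0.05 and grey otherwise. Of the identity genes, 24 of 27 passed as higher against cDC2 and 25 of 28 against B cells, where Ly6d lies below 0 (-0.94, not passed), and 17 of 28 secretory genes passed as higher against B cells and 2 of 28 against cDC2.

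Growth factor receptors of dendritic cells differed from B cells in 6 of 10 genes, all higher, among them Flt3 (3.49), the receptor that pDC development depends on, Kit (2.78) and Il7r (2.63). Against cDC2 Ly6a was higher and Csf1r (-2.67) and Axl (-1.39) were lower of 9 tested. The genes that fell furthest below cDC2 were Clec4b1 (1.62 CPM in the members and 57.0 in cDC2, adjusted p = 0.00734 in edgeR), Pilrb1, Ffar2, Tnip3 (23.1 and 545, adjusted p = 0.00602), Htra3, Fcrls, Gfra2, Ramp3, Ifitm1 (26.1 and 440) and Timp1. Of 15 immediate early genes tested, 3 were lower than in cDC2 (Hspa1b, Hspa1a and Dusp1, with 4.38% of all genes lower). Klf2 was the 1 of 15 that was lower than in B cells, a share near the 6.84% of all genes.

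Against cDC1 only day 7 held at least 20 cells of both classes, and 1 library gives no test. With a limit of 15 cells, set after the values were seen, all 5 libraries entered, and 216 of 5415 genes (3.99%) were higher and 106 (1.96%) lower in the members by the edgeR quasi-likelihood test. These counts depended on single libraries, with 5 higher and 0 lower without day 7 and 543 and 453 without day 28. Of the identity genes 12 of 15 tested were higher than in cDC1 and none was lower, and Tcf4 (log2 fold change 3.35 ± 0.48 SE, adjusted p = 0.0163 in edgeR), Runx2 (5.26) and Ccr9 (5.68) were higher. Of 20 presentation genes 2 were lower and none was higher. In the identity-poor cells, which were 13 of the 15 members on day 28, cDC1 genes were found as described above. The day 7 levels of identity-rich members and of the cDC1 gate are set side by side. Pld4 was at 834 CPM in identity-rich cells and 192 in the cDC1 gate, Unc93b1 at 639 and 246, and Tyrobp at 5223 and 921. Iglc3 was at 675 and 0 CPM and Mzb1 at 285 and 0.737. H2-Aa was at 1468 and 9519 CPM and Id2 at 71.0 and 1051.

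The tdT reporter traces cells of the granulocyte and monocyte lineage that were labelled under tamoxifen in these mice. The shares below therefore describe labelled cells, which need not be the whole lineage. After thinning to 3000 UMIs per cell, with shallower cells left out (none of the members), RFP was found in 41.2% (18.4 to 67.1) of sham members, 48.1% (40.2 to 56.2) on day 3, 55.9% (48.1 to 63.5) on day 7, 51.9% (32.0 to 71.3) on day 14 and 20% (4.33 to 48.1) on day 28. In T cells, which should lack the reporter, it was found in 26.9%, 18.3%, 25.1%, 53.9% and 28.9%, and in B cells in 16.3%, 12.02%, 19.9%, 32.7% and 17.4%. Among all members the shares on days 3 and 7 were above those of T and B cells. The day 14 share was not above that of T cells, and the sham and day 28 intervals include the T cell share. In identity-rich cells the day 14 share was 72.7% (39.0 to 94.0), an interval that includes the T cell share, and in identity-poor cells it was 37.5%. On day 28 RFP was found in 2 of 2 identity-rich cells and in 1 of 13 identity-poor cells. On day 3 the share was 45.5% in cDC2, 36.8% in cDC1 and 51.9% over all kept cells, so that the interval of the members includes the cDC2 share and that of all kept cells. The day 3 level of RFP in the members (294 CPM) was below that of cDC2 (547), cDC1 (387) and all kept cells (594). On day 7 the share was 21.2% in cDC2, 25.9% in cDC1 and 32.2% over all kept cells. In NK cells it was found in 23.1%, 26.6%, 40% (21.1 to 61.3), 60% and 33.3%, and the day 7 interval overlaps that of the members. In neutrophils RFP was found in 92.6%, 92.6%, 68.9%, 65.8% and 36.4%, after 571 of 800, 167 of 560, 0 of 61, 265 of 423 and 273 of 317 cells had been left out as too shallow. In the monocyte gate (at least 2 UMIs each of Ly6c2 and Ccr2) it was found in 79.4% in sham, 80.5% on day 3 and 21.9% (13.1 to 33.1) on day 7, and the 7 and 3 cells of days 14 and 28 gave 42.9% and 33.3%. The level of RFP was 248 CPM in sham members, 294 on day 3, 240 on day 7, 335 on day 14 and 85.7 on day 28, against 133 CPM in sham T cells and 2282 in sham neutrophils. At a limit of 3 UMIs the share of members was 0% in sham, 6.25% on day 3, 7.06% on day 7, 22.2% on day 14 and 0% on day 28. Without thinning, RFP was found in 88.2%, 84.4%, 85.3%, 92.6% and 60.0% of the members.

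Markers of other cells were also found in the members, and their part in the results above was not tested. The summed level of 6 epithelial markers was 633 CPM in sham members, 129 on day 3, 1215 on day 7, 14133 on day 14 and 728 on day 28. The summed level of 6 neutrophil markers was 53.2 CPM in sham members, 1606 on day 3, 961 on day 7, 477 on day 14 and 39.3 on day 28. NK cell markers reached 192 CPM on day 3, of which Gzma gave 172. Monocyte markers were between 984 and 1693 CPM in 4 libraries and at 6659 on day 28, of which Lyz2 gave 5667. The B cell markers other than Ms4a1 were under 24 CPM in each library and the T cell markers other than Cd3e under 43 CPM. Of the basophil markers, Mcpt8, Cpa3, Fcer1a and Ms4a2 were at 0 in the members of all 5 libraries. Scgb1a1, a club cell gene, gave 13812 of the 14133 CPM of epithelial markers on day 14, and 97.3% of its UMIs came from 1 cell.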

How the data were processed

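Lung immune cells of 5 libraries, 1 per time point, were profiled with the 10x Genomics 3′ kit. The authors made the deposited UMI counts with Cell Ranger 6.0.0 on mm10, as per the labels (the matrix headers name another software version), and deposited them as raw counts of 28693 features per barcode, without normalization or the study's later filters. Reads were counted by gene, so that paralogs may share them. Here, barcodes were filtered on genes, UMIs and mitochondrial share, and doublets were kept in the main values. Removal of the highest Scrublet doublet scores (scanpy 1.11.5) was an alternative. It took out 21 of 160 day 3 members, all identity-rich, and 6.41% of the kept barcodes of that library. In the sham, day 7, day 14 and day 28 libraries it took out 1, 8, 0 and 2 members. With it the day 3 share was 1.86% and the ISG log2 ratio of day 3 to sham 2.57. The members, the gene lists and the tests were chosen with earlier results of these data known. For CPM, the UMIs of each gene were added up within a class and library and scaled to a total of 1000000. Shares have exact binomial intervals, levels exact Poisson intervals, and ratios exact binomial intervals. Without replicates, a gene counted as higher or lower in a day than in sham when it reached 100 CPM in either library and differed at least 2-fold. Classes were compared with edgeR 4.0.16 in R 4.3.3 (quasi-likelihood test, TMM, filterByExpr, library as a block, Benjamini-Hochberg adjustment over all genes). On data simulated for the cDC2 comparison (7828 genes), 63 of 100 genes changed 2-fold and 96 of 100 changed 4-fold were recovered, with 6 false calls of 165, and for the B cell comparison (8757 genes) 65, 98 and 4 of 167. In this simulation every gene had the same dispersion, and the libraries of a class differed only in total UMIs. These rates therefore need not hold for the real tests, whose counts depended on single libraries. Named genes were the 10 largest changes in each direction per test that went the same way in every library, the 5 largest ratios in each direction per day with a UMI in 10% or more of the cells of the higher library, and members of the lists described. Results for some listed genes are not reported here. The p-values measure the spread between 3 libraries of different days (5 against cDC1).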

Additional observations from a re-analysis of the deposited data

How the results depend on the processing

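No paired analysis was possible because each group has 1 library, and the library block of the class tests already pairs classes within a library. The share of members in the sham, day 3, day 7, day 14 and day 28 libraries was 0.336%, 2.75%, 2.82%, 0.890% and 0.243% when the 4 genes required at 0 were not used (added once the data had been examined), and 0%, 0.0125%, 0%, 0% and 0% when cells with 2 or more UMIs of any other lineage's marker list were left out, a limit that nearly every cell exceeds. With looser limits (1 Siglech and 2 Bst2 UMIs) it was 2.50% on day 3, 2.65% on day 7, 0.541% on day 14 and 0.302% on day 28, and with stricter ones (3 and 5 UMIs) 1.52%, 0.206% and 0.0292% on days 7, 14 and 28. The day 7 minimum of UMIs per barcode, applied to each library, gave 2.49% (2.11 to 2.90) on day 3, above the unchanged day 7 interval (1.53 to 2.08). Members with 12 or more identity genes made up 1.47%, 0.142% and 0.0195% on days 7, 14 and 28, and members without an Xcr1 UMI 1.53%, 0.142% and 0.0195% (both also added then). The number of genes lower on day 3 was 130 with looser limits and 56 without the 4 genes, and on day 7 it was 76 with CPM averaged over cells. On day 14 it was 174 with 12 or more identity genes and 183 without Xcr1 cells. On day 28 looser limits gave 161 higher and 321 lower genes. The ISG log2 ratio of day 3 to sham was 3.12 with looser limits and 2.46 without the 4 genes. Ckb on day 7 turned to a log2 ratio of -0.55 with looser limits. Against cDC2, 929 genes were higher and 895 lower without the filter on low counts, and 228 and 120 without the library block. With stricter limits (939 and 1042), 12 or more identity genes (984 and 1110) or no Xcr1 cells (875 and 978) day 14 held fewer than 20 members and only days 3 and 7 were compared, on which all members gave 632 and 590. Leaving out 1 library gave 47 to 632 higher and 43 to 590 lower genes, the fewest without day 7 (47 and 43) and the most without day 14 (632 and 590). Against B cells, 1148 genes were higher without the filter, and 423 and 336 higher and lower without the block. With looser limits (1146 and 1095) and without the 4 genes (1213 and 1162) sham and day 28 entered as well, so that the rule and the added libraries cannot be told apart. Leaving out 1 library gave 54 to 1119 higher and 47 to 918 lower genes, namely 54 and 47 without day 3, 396 and 276 without day 7 and 1119 and 918 without day 14. DESeq2 1.42.0 called 362 and 337 genes against cDC2 and 598 and 445 against B cells. RFP was found in 11.8%, 18.1%, 23.5% and 22.2% of members in sham, day 3, day 7 and day 14 at a limit of 2 UMIs, in 0%, 6.25%, 7.06%, 22.2% and 0% at a limit of 3 UMIs in the 5 libraries, and in 88.2%, 84.4%, 85.3%, 92.6% and 60.0% without thinning. The cause of these differences was not tested. Against cDC1 the main setting and those of its alternatives that left 1 library were not run. With 20 cells, looser limits gave 9 higher and 0 lower genes and the rule without the 4 genes 20 and 0 (sham, day 7 and day 28), with 668 and 904 genes at an unadjusted p under 0.05. With 15 cells (added once the data had been examined) there were 216 and 106, and 888 and 904 without days 14 and 28. Leaving out 1 library gave 5 to 543 higher and 0 to 453 lower genes, namely 24 and 7 without sham, 21 and 3 without day 3, 5 and 0 without day 7 (879 at an unadjusted p under 0.05), 113 and 29 without day 14 and 543 and 453 without day 28. At p under 0.05 without adjustment, 2035 genes differed from cDC2 and 2676 from B cells. The sham, day 14 and day 28 values rest on the fewest cells, namely 17, 27 and 15.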

Other observations

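Some genes named for a difference between sham members and those of a given day also differed over all kept cells, in the same direction on that day. Of those given here, Rpl29, Gm10709, Cwc22 and Spp1 went the same way as in the members on each day. Gm8730, Rnaset2b and Lpl did not do so on every day. Rpl29, a ribosomal protein gene, was at 913 CPM over all kept cells in the sham library, 675 on day 3, 678 on day 7, 6.05 on day 14 and 378 on day 28. Gm8730 was at 266, 289, 23.2, 19.2 and 18.4 CPM in the same order, Gm10709 at 4.08, 345, 289, 86.4 and 50.03, Cwc22 at 90.6, 15.9, 15.01, 110 and 55.4, and Rnaset2b at 23.7, 64.1, 0.572, 53.04 and 46.5. Lpl was at 1722, 400, 659, 1886 and 2677 CPM and Spp1 at 857, 1717, 3041, 12304 and 12044.

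Among targets of interferon gamma, 3 of the 4 that reached 100 CPM were at least 2-fold higher in day 3 members than in sham members (10.2% of all genes), and Ifng itself gave 1 UMI there. Of 12 tested p53 targets, which respond to DNA damage, 1 was higher and 1 was lower in the members than in cDC2, where 5.51% and 4.38% of all genes passed.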
